A study of Mus musculus with 12 samples.

Results

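The enzymes that glycolysis shares with gluconeogenesis, and lactate dehydrogenase, were followed in fasting mouse liver through 7 genes, Gpi1, Aldoa, Tpi1, Gapdh, Pgam1, Eno1 and Ldha, of the 6648 that could be named. They were measured by 11 of the 20280 probes that were neither control spots nor retired spots. Of these, 8 came from a fixed list of probes, and 3 more were added because the files or the gene table gave them the same gene. All 8 listed probes, and 1 of the 3 others, were also on the study's list of changed genes for these same livers, so their direction in fasting is not independent evidence. Male FVB mice of 6 weeks were fed or were fasted for 12, 24 or 72 hours in metabolic cages, and an infrared lamp warmed the cages from 24 hours on. Each of the 4 groups had 3 dual-colour oligonucleotide arrays. Each array carried a pool of 2 livers of that group in the Cy3 channel and, in the Cy5 channel, a common reference pooled from 6 fed livers. There was no dye swap. No genetic change or drug was involved, and the fed animals served as control at all 3 times. P-values measure the spread between arrays. In that spread, differences between pools of livers cannot be separated from those of hybridisation, signal and quantification. Values are log2 ratios of sample over reference, so 0 means the level of the reference pool. In whole liver, fewer cells of a type and less RNA per cell cannot be told apart.

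Glycolysis breaks glucose down to pyruvate, and gluconeogenesis makes glucose from lactate, glycerol and amino acids. From glucose-6-phosphate isomerase to enolase, the steps other than that of phosphofructokinase run close to equilibrium and serve both directions. A few irreversible steps are left to separate enzymes: glucokinase, phosphofructokinase and pyruvate kinase go down the pathway, and phosphoenolpyruvate carboxykinase, fructose-bisphosphatase and glucose-6-phosphatase go up. Lactate dehydrogenase joins the pathway to circulating lactate. Fed liver uses the shared enzymes to dispose of glucose and fasted liver uses them to export it.

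The 2 arrays with the lowest sample signal over background were set apart, a number that was chosen and not given by a gap. The median sample signal was 4.72 times the local background on 12 h replicate 2 and 3.50 times on 24 h replicate 3, against 5.34 to 10.6 on the other 10 arrays. The next lowest was 12 h replicate 1 at 5.34, closer to 12 h replicate 2 than 24 h replicate 3 was. The 2 lowest are called the low-signal arrays, and values are given with and without them. The file headers placed the quantification of the scans on 3 days. Day 1 held fed replicate 1 and both low-signal arrays, day 2 held fed replicates 2 and 3 and all 72 h arrays, and day 3 held 12 h replicates 1 and 3 and 24 h replicates 1 and 2. For the last 4 arrays, day and fasting cannot be told apart in a comparison with the fed group.

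The tissue label was checked with hepatocyte markers. Of 10 such genes, 3 had a probe by name (transthyretin Ttr, apolipoprotein Apoa1 and transferrin Trf), and all 4 of their probes were well above background on every array. Their summed sample signal was 161100 to 171800 in the fed group, 132800 to 150700 at 12 h, 135700 to 141300 at 24 h and 90330 to 130200 at 72 h. Skeletal muscle and adipose markers had a probe for 4 of 9 genes (Acta1, Cfd, Ckm and Mylpf), none of them below background. Their mean log2 ratio was 0.92 on 12 h replicate 2 and 0.30 on 24 h replicate 3, the 2 highest of the 12 arrays, and it lay between -0.41 and 0.08 on the other 10. Their summed signal was 7218 and 6308 on these 2 arrays and 2921 to 4657 on the others. Macrophage and leukocyte markers (6 of 12 genes) were lowest on the same arrays, at -0.74 and -0.44, and lay between -0.36 and 0.22 on the rest. Erythroid markers (2 of 8 genes) were near the reference on the 2 low-signal arrays, at -0.03 and -0.04, and between -0.98 and -0.75 on the 4 arrays of day 3. With all 12 arrays none of the marker probes passed the test described next, at any of the 3 times, beside 0.00996% of all probes or fewer. Without the low-signal arrays 1 of 4 hepatocyte probes passed, downward at 72 h (0.836% of all probes). With the array weights explained below, hepatocyte probes passed at 12 h (1 up), 24 h (1 down) and 72 h (2 down). Erythroid probes did at 12 h (2 down) and 24 h (1 down), macrophage and leukocyte probes at 24 h (1 down) and 72 h (2 down). An endothelial or stellate probe passed downward at 72 h. In that fit 9.53%, 10.5% and 4.11% of all probes passed. The part of these markers in the enzyme values was not tested.

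All 11 probes were well above background in both channels on all 12 arrays. With all 12 arrays, 0 of the 11 passed the test in any comparison with the fed group (limma, adjusted p under 0.05 and at least 1.4-fold). Of all probes tested, 0.00497% passed at 12 h, 0.00497% at 24 h and 0.00996% at 72 h. At an unadjusted p under 0.05 there was 1 member at 12 h, 1 at 24 h and 0 at 72 h, beside 3.92%, 3.04% and 1.55% of all probes. The direction of the estimates was less even. The 8 listed probes lay above the fed group in 8 of 8 cases at 12 h, 7 of 8 at 24 h and 6 of 8 at 72 h, where 49.2%, 49.5% and 46.6% of all probes did. Their median log2 difference from fed was 0.40, 0.35 and 0.22, with all probes at -0.01, -0.00 and -0.01. Without the low-signal arrays the medians were 0.81, 0.68 and 0.22.

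The arrays show where the spread came from. All 7 measured listed probes were above the fed mean on 12 h replicate 1, as were 8 of 8 on 12 h replicate 3 and 2 of 8 on 12 h replicate 2. At 24 h, 8 of 8 were above it on replicates 1 and 2 and 0 of 8 on replicate 3. At 72 h the numbers were 2, 8 and 6 of 8 on replicates 1, 2 and 3. The fed arrays themselves ranged from 7 of 7 on replicate 1 to 0 of 6 on replicate 3. The listed probes therefore tended to lie on the same side of the fed mean on an array, within groups as well as between them. Over the 10 arrays without low signal, all 28 pairs of listed probes had a correlation above 0, with a median of 0.77 and a range from 0.37 to 0.94. All 8 listed probes were on the study's list of genes changed in these livers, so part of this likeness is built in by selection. The 4269 other named probes measured and well above background throughout had a median correlation of 0.314 with the mean of the listed probes. That sets a probe against a mean, so it is not the like measure for the 0.77 of pairs, for which no background was computed. The 10 arrays share a reference pool, and 4 of them are the fasted arrays of day 3, so the correlations are a description.

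**Figure D1:**
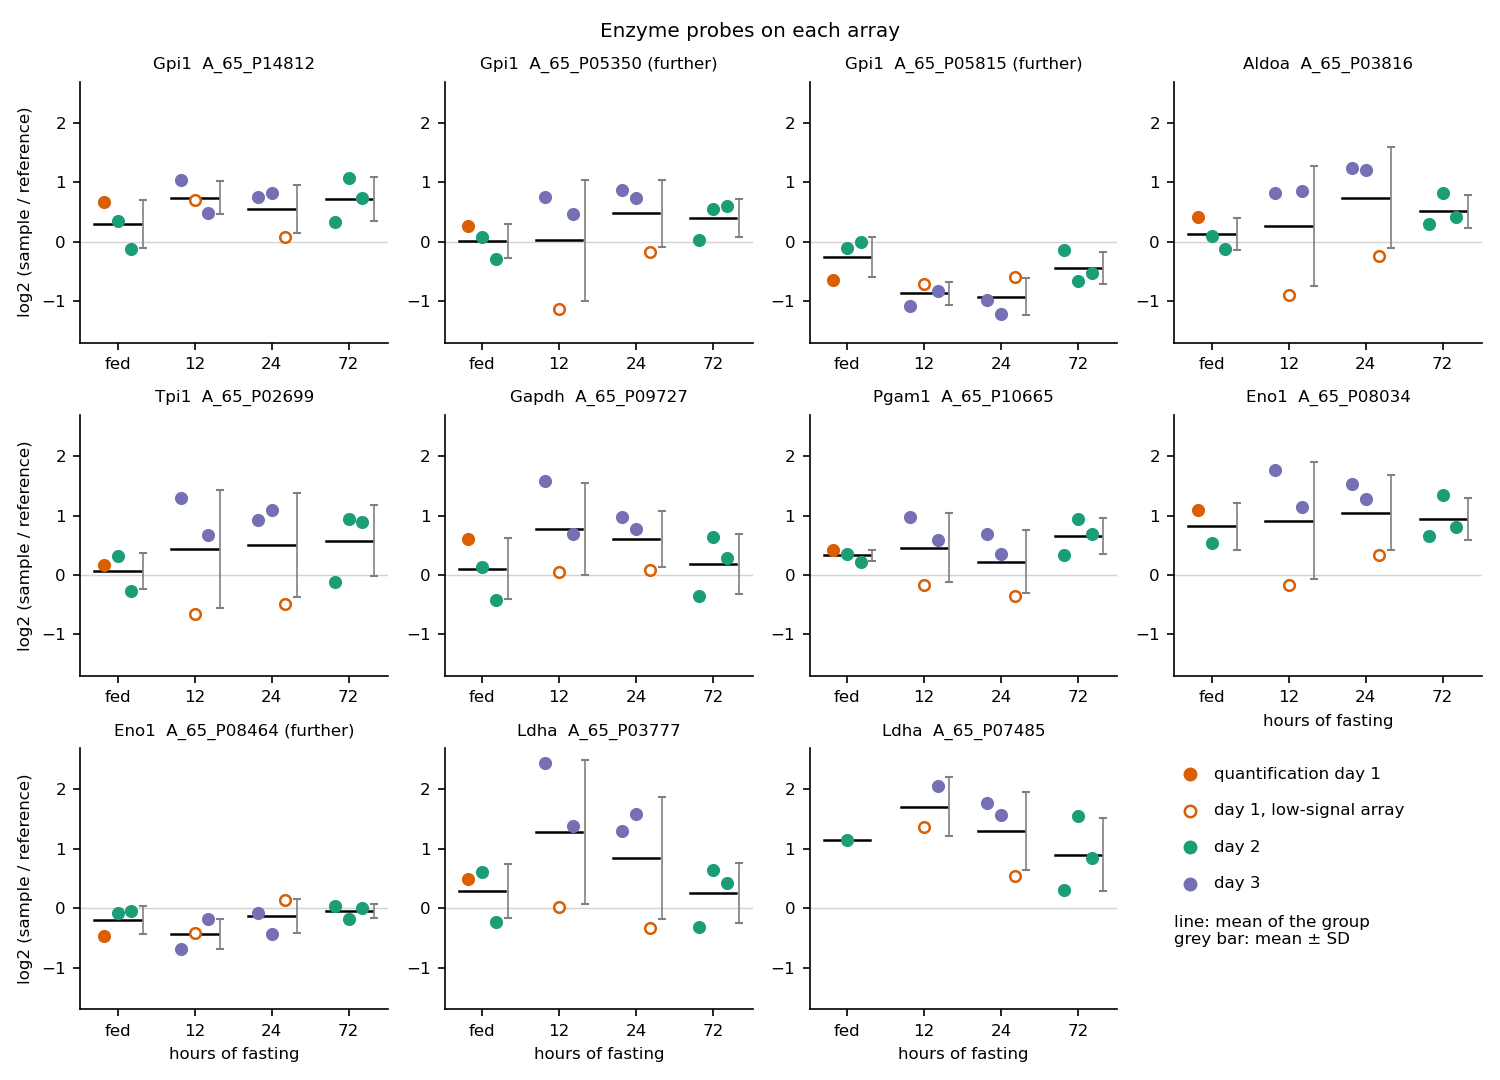
Log2 ratio of sample over reference (vertical axis) by hours of fasting (horizontal axis) for each of the 11 probes. Each point is 1 array, its colour is the quantification day, and open points are the 2 low-signal arrays. The short line is the mean of the group and the grey bar is the mean ± SD. In most panels the open points lie under the other arrays of their group, as for Aldoa at 12 h, with -0.90 against 0.83 and 0.86.

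The promoters of the 7 genes were read for short motifs in windows from 250 bases before to 50 bases after each RefSeq gene start (GRCm38.p6). The motifs were the hypoxia response core (ACGTG or GCGTG), the E-box CACGTG, the cyclic AMP response element TGACGTCA, the GC box GGGCGG and TATAAA, all on both strands. An E-box also holds the letters ACGTG on each strand. A hypoxia core stood in windows of 5 of the 7 genes, where 46.73% of all genes with a window have one. The GC box stood in 6 of 7 (38.2% of all genes), the E-box and the cyclic AMP element in Ldha (8.09% and 2.03%), and TATAAA in 0 (15.67%). A gene was counted if any of its windows matched, and the 7 genes have 12 windows, where all 27025 genes have 32851. By window, a hypoxia core stood in 9 of 12 (43.77% of all windows) and a GC box in 8 of 12 (35.66%). The windows of the 7 genes held 52.7% to 69.0% G and C, beside a median of 52.7% over all windows. The 250 bases before the start are shown for the 4 genes that contrast most in these letters, 5′ to 3′ on the gene's strand, with hypoxia cores of either strand in capitals. Ldha has 5 matches to ACGTG, 4 of them from its 2 E-boxes. Pgam1 has 1 match to ACGTG and 2 to GCGTG, Gapdh has 2 to GCGTG, and Tpi1 has none in this stretch.
Ldha (chr7:46845554-46845803, plus strand): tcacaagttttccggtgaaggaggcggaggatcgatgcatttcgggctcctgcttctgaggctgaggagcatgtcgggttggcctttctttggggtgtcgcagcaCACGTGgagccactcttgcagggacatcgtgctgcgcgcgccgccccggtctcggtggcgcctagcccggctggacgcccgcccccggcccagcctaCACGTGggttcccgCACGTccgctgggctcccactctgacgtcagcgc
Pgam1 (chr19:41911621-41911870, plus strand): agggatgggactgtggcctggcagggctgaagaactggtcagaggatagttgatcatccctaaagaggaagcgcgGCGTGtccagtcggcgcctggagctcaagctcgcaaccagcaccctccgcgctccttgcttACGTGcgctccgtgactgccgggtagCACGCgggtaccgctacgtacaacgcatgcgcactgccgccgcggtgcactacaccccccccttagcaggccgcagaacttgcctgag
Gapdh (chr6:125165774-125166023, minus strand): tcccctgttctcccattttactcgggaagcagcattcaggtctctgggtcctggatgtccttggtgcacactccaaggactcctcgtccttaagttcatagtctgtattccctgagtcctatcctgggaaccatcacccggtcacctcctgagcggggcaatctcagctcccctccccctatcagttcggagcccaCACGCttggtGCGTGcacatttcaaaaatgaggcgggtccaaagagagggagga
Tpi1 (chr6:124814159-124814408, minus strand): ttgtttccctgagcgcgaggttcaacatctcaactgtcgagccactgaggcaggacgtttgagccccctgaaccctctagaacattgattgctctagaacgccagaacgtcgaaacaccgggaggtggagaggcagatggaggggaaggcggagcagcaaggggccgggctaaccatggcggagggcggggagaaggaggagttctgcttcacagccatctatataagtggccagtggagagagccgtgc
A match is a run of letters, and the absence of one says only that those letters are not in this window.

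Glucose-6-phosphate isomerase (Gpi1) interconverts glucose 6-phosphate and fructose 6-phosphate, the first step the pathways share. It had 3 probes. The listed probe A_65_P14812 had no gene name in the files and is named from the study list's gene ID. Its log2 ratio was 0.67, 0.35 and -0.13 in the fed replicates 1, 2 and 3, then 1.04, 0.70 and 0.49 at 12 h, 0.75, 0.82 and 0.08 at 24 h, and 0.34, 1.07 and 0.74 at 72 h. The groups overlapped at every time. Probe A_65_P05350 read 0.26, 0.07 and -0.29 in the fed group, 0.75, -1.14 and 0.47 at 12 h, 0.87, 0.74 and -0.18 at 24 h, and 0.03, 0.55 and 0.60 at 72 h. Here the 2 low-signal arrays gave -1.14 and -0.18, and the other 12 h and 24 h arrays all lay above the fed ones. Without the low-signal arrays, 24.3% (12 h) and 27.6% (24 h) of all probes measured on those arrays did so. The differences from fed were 0.44, 0.25 and 0.42 (SE 0.28) for A_65_P14812 and 0.01, 0.46 and 0.38 (SE 0.45) for A_65_P05350. When the low-signal arrays were left out, A_65_P05350 was higher by 0.79 on the log2 scale at 24 h (95% interval 0.35 to 1.23, limma adjusted p = 0.0342). The 24 h arrays of that fit are all of day 3, which holds no fed array. Day and fasting cannot be told apart there. With quantification day as a block over all 12 arrays, the difference was -0.70.

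The third Gpi1 probe, A_65_P05815, went the other way. It read -0.64, -0.11 and -0.01 in the fed group, -1.07, -0.71 and -0.83 at 12 h, -0.98, -1.21 and -0.59 at 24 h, and -0.14, -0.67 and -0.53 at 72 h. All 12 h arrays lay under all fed arrays, the low-signal one included. This was the 1 member of the 9 measured on all fed and 12 h arrays without overlap in that direction, beside 6.2% of all such probes. The difference was -0.62 at 12 h (95% interval -1.13 to -0.11) and -0.67 at 24 h (-1.18 to -0.16), with unadjusted p of 0.0222 and 0.0145. Over all probes the limma adjusted p was 0.956 or higher for every member at 12 h and 1.00 at 24 h. A_65_P05815 was lower by 0.84 on the log2 scale at 24 h when the low-signal arrays were left out (limma adjusted p = 0.0307), or 1.79-fold. The 24 h arrays of that fit are again all of day 3. With quantification day as a block over all 12 arrays, the difference was -0.03. The 3 probes named for Gpi1 thus disagreed in sign, and the files do not tell which transcript each one reads.

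Aldolase A (Aldoa) cleaves fructose 1,6-bisphosphate into triose phosphates, and in liver it accompanies aldolase B, the main hepatic form, for which no probe was found by name. Probe A_65_P03816 read 0.42, 0.09 and -0.11 in the fed group, 0.83, -0.90 and 0.86 at 12 h, 1.24, 1.21 and -0.24 at 24 h, and 0.29, 0.82 and 0.42 at 72 h. The 4 fasted arrays of day 3 were the highest and the 2 low-signal arrays the lowest of all 12. Without the low-signal arrays, 24.3% (12 h) and 27.6% (24 h) of all probes measured on those arrays lay wholly above the fed group. With all arrays the differences from fed were 0.13, 0.61 and 0.38 (SE 0.50). Aldoa was higher by 1.10 at 24 h, 2.14-fold, once the low-signal arrays were left out (95% interval 0.71 to 1.49 on the log2 scale, limma adjusted p = 0.00945, 2 arrays against 3). At 12 h the same fit gave 0.71 with an adjusted p of 0.0581. The 12 h and 24 h arrays of that fit are all of day 3, which holds no fed array. Day and fasting cannot be told apart there. With quantification day as a block over all 12 arrays, the differences were -1.23 at 12 h and -0.75 at 24 h. At 72 h, within day 2 alone, the difference was 0.52 (95% interval 0.13 to 0.92, limma unadjusted p = 0.0156), and no member passed the adjusted test there (adjusted p 0.295 to 0.986). Aldoa was also the member whose reference channel varied least: the same RNA gave a SD of 0.110 over the 12 arrays.

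Triose-phosphate isomerase (Tpi1) equilibrates the triose phosphates. Probe A_65_P02699 read 0.16, 0.32 and -0.27 in the fed group, 1.30, -0.66 and 0.68 at 12 h, 0.93, 1.10 and -0.49 at 24 h, and -0.12, 0.94 and 0.90 at 72 h. Again the low-signal arrays were the lowest of the 12, and the remaining 12 h and 24 h arrays lay above every fed array. So did 24.3% (12 h) and 27.6% (24 h) of all probes measured on those arrays. The differences from fed were 0.37, 0.44 and 0.51 (SE 0.54), and without the low-signal arrays 0.92, 0.94 and 0.51, with limma adjusted p of 0.119, 0.0730 and 0.480.

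Glyceraldehyde-3-phosphate dehydrogenase (Gapdh) couples triose oxidation to NADH and is often used as a reference gene. Probe A_65_P09727 read 0.61, 0.13 and -0.42 in the fed group, 1.58, 0.04 and 0.70 at 12 h, 0.98, 0.78 and 0.08 at 24 h, and -0.36, 0.63 and 0.28 at 72 h. The 12 h arrays had the widest spread, 0.77 ± 0.77 (SD, n = 3) against 0.11 ± 0.51 in the fed group. The differences were 0.67, 0.50 and 0.08 (SE 0.42), and without the low-signal arrays 1.03 at 12 h and 0.77 at 24 h (limma adjusted p = 0.119 and 0.161). Taken from the sample channel alone, without the reference, they were 0.11, 0.64 and -0.19, so the sign at 72 h depended on whether the reference channel was used.

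Phosphoglycerate mutase (Pgam1) moves the phosphate of phosphoglycerate. Its probe A_65_P10665, unnamed in the files, read 0.42, 0.35 and 0.22 in the fed group, 0.97, -0.17 and 0.58 at 12 h, 0.68, 0.35 and -0.35 at 24 h, and 0.33, 0.94 and 0.70 at 72 h. The fed arrays were close together (0.33 ± 0.10, SD, n = 3) and the fasted arrays lay on both sides of them. The differences were 0.13, -0.10 and 0.33 (SE 0.32), and that at 24 h was 0.19 without the low-signal arrays.

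Enolase 1 (Eno1) makes phosphoenolpyruvate, and its 2 probes also differed. The listed probe A_65_P08034 read 1.10 and 0.53 on fed replicates 1 and 2 and was marked as an outlier on fed replicate 3, so the fit used 2 fed arrays. It read 1.76, -0.16 and 1.14 at 12 h, 1.54, 1.28 and 0.33 at 24 h, and 0.66, 1.35 and 0.81 at 72 h. The differences from fed were 0.10, 0.23 and 0.12 (SE 0.54). The further probe A_65_P08464, named Eno1 in the files, read -0.46, -0.08 and -0.04 in the fed group, -0.69, -0.43 and -0.18 at 12 h, -0.08, -0.43 and 0.13 at 24 h, and 0.03, -0.19 and -0.00 at 72 h. Its differences were -0.24, 0.07 and 0.14 (SE 0.20), and its 95% interval held 0 at each time. Over the 10 arrays without low signal, this probe and the Gpi1 probe A_65_P05815 were negatively correlated with all 8 listed probes, in 16 of 16 pairs, with a median of -0.74.

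Lactate dehydrogenase A (Ldha) interconverts pyruvate and lactate, and its listed probe had the largest estimate of the 11 at 12 h. Probe A_65_P03777, unnamed in the files, read 0.50, 0.60 and -0.23 in the fed group, 2.44, 0.03 and 1.39 at 12 h, 1.30, 1.58 and -0.33 at 24 h, and -0.31, 0.65 and 0.42 at 72 h. The 2 other 12 h arrays and the 2 other 24 h arrays were above every fed and every 72 h array, while 1 low-signal array was within the fed range and the other under it. Without the low-signal arrays, 24.3% (12 h) and 27.6% (24 h) of all probes measured on those arrays lay wholly above the fed group. The differences from fed were 0.99, 0.56 and -0.04 (SE 0.62), with a 95% interval of -0.37 to 2.35 at 12 h. Leaving out the low-signal arrays, it rose by 1.62 at 12 h, 3.08-fold (95% interval 0.84 to 2.40, limma adjusted p = 0.0421, 2 arrays against 3), and the 24 h value was 1.15 with an adjusted p of 0.0619. In the same fit the difference of 72 h from 12 h was -1.66, with an adjusted p of 0.120, which did not pass. The 12 h and 24 h arrays of that fit are all of day 3, which holds no fed or 72 h array. Day and fasting cannot be told apart there. With quantification day as a block over all 12 arrays, the differences from fed were -0.43 at 12 h and -0.86 at 24 h. In the sample channel alone, with all arrays, the 12 h difference was 1.42 with a limma unadjusted p of 0.00407 and an adjusted p of 0.765.

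The second listed lactate dehydrogenase probe, A_65_P07485, carries a conflict of names: the files call it Ldh3, the C chain gene Ldhc, and the study list gives it the gene ID of Ldha. It was marked as an outlier on fed replicates 1 and 3 and on 12 h replicate 1, so its fed level rests on 1 array, at 1.15. It read 1.36 and 2.06 on 12 h replicates 2 and 3, 1.77, 1.58 and 0.55 at 24 h, and 0.31, 1.55 and 0.85 at 72 h. Its differences of 0.56, 0.15 and -0.25 rest on that 1 fed array. In its reference channel, the same RNA spread over 2.20 on the log2 scale across the 12 arrays (SD 0.608), the widest of the 11. Of the 11 probes, 10 had a reference SD above the median over all probes, 0.303.

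The comparisons were then set side by side. In the fit without the low-signal arrays, 1 of the 11 probes passed at 12 h (Ldha A_65_P03777), 3 at 24 h (Aldoa and Gpi1 A_65_P05350 up, Gpi1 A_65_P05815 down) and 0 at 72 h. Over all probes, 2.59%, 8.81% and 0.836% passed in that fit. At an unadjusted p under 0.05 it held 8, 6 and 1 of the 11, beside 21.9%, 30.4% and 13.3% of all probes. With all arrays, 0 of the 9 probes measured on every array lay wholly above the fed group at 12 h or 24 h, beside 6.45% and 6.66% of all probes, and at 24 h 0 lay wholly below (4.77%). Without the low-signal arrays, 6 of the 9 lay wholly above the fed arrays at 12 h and 6 at 24 h, beside 24.3% and 27.6% of all probes, and 1 lay wholly below at each time, beside 21.8% and 20.3%. Array weights, estimated by limma from these same data, give less weight to arrays that lie far from their own group. With these weights, 7 passed at 12 h and 5 at 24 h, beside 9.53% and 10.5% of all probes, and 0 passed at 72 h (4.11%). At an unadjusted p under 0.05 there were 11, 9 and 7, beside 36.3%, 36.8% and 21.3% of all probes. The 7 at 12 h were Ldha A_65_P03777 at 1.54, Gapdh at 1.15, Eno1 A_65_P08034 at 0.92, Tpi1 at 0.82, Aldoa at 0.75, Gpi1 A_65_P05350 at 0.60 and Gpi1 A_65_P05815 at -0.85. Between fasted groups, 0 of 11 passed with all arrays in 24 h against 12 h, 72 h against 24 h and 72 h against 12 h, and 0% of all probes did. At an unadjusted p under 0.05 these comparisons also held 0 members, beside 0.945%, 3.42% and 4.88% of all probes. Leaving out the low-signal arrays, 0 passed in the 3 comparisons (0%, 1.3% and 0.134% of all probes), and 0, 4 and 4 members had an unadjusted p under 0.05 (3.57%, 23% and 12.8%). Weighting the arrays, 0 members passed for 24 h against 12 h (0.9%), Aldoa passed for 72 h against 24 h at -0.62 (limma adjusted p = 0.0489, 4.26% of all probes) and Ldha A_65_P03777 for 72 h against 12 h at -1.60 (adjusted p = 0.0279, 1.74%). In that fit 1, 4 and 5 members had an unadjusted p under 0.05, beside 7.35%, 24.2% and 20.2% of all probes.

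**Figure D2:**
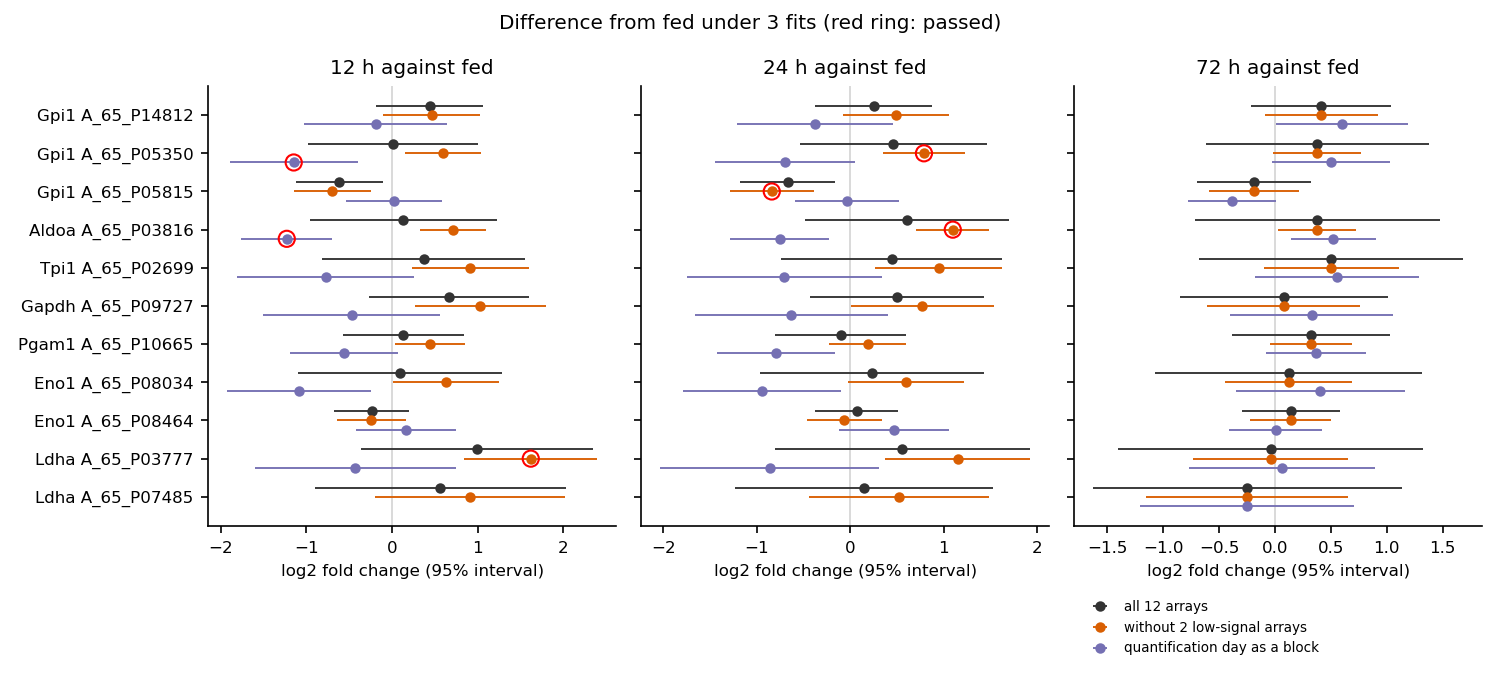
Log2 difference from the fed group (horizontal axis) with its 95% interval for the 11 probes at 12, 24 and 72 h. The 3 marks per probe are the fits with all 12 arrays, without the 2 low-signal arrays and with quantification day as a block, and a red ring marks a value that passed. Ldha A_65_P07485 has no mark for the day block at 12 and 24 h, where it could not be estimated. For Ldha A_65_P03777 at 12 h the 3 estimates were 0.99, 1.62 and -0.43.

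The direction of most estimates turned at 12 h and 24 h when quantification day was a block in the fit. For the Ldha probe A_65_P07485 this fit gives no 12 h or 24 h difference from fed, because its 1 fed array is of day 2, which holds no array of those times. The median of the other 7 listed probes was then -0.56 at 12 h and -0.75 at 24 h, and that of all 8 was 0.39 at 72 h. In that fit 2 members passed at 12 h, both down (Aldoa at -1.23 with a limma adjusted p of 0.0111, and Gpi1 A_65_P05350 at -1.15 with 0.0367), where 23.3% of all probes passed. At 24 h 0 passed (12% of all probes), and at 72 h 0 passed (0.0209%). At an unadjusted p under 0.05 there were 3, 3 and 2 members, beside 39.5%, 32% and 6.39% of all probes. Between fasted groups, 0 passed for 24 h against 12 h (0%), Aldoa alone for 72 h against 24 h at 1.28 (9.79%), and Aldoa at 1.75 and Gpi1 A_65_P05350 at 1.65 for 72 h against 12 h (17.3%). There, 1, 4 and 5 members had an unadjusted p under 0.05, beside 6.64%, 29.6% and 35.1% of all probes. The 12 h and 24 h estimates against fed for the other 10 probes depend on fed replicate 1 and the 2 low-signal arrays. These are of day 1, the only day with fed arrays and arrays of those times. The arrays of day 3 also enter, through the difference of 24 h from 12 h. Within day 1 alone, the 12 h differences were 0.02 for Gpi1 A_65_P14812 and -0.06 for A_65_P05815. The block gave these the opposite signs, at -0.19 and 0.02, and the other probes it estimated at 12 h kept their sign. Within day 1, Aldoa went from 0.42 on fed replicate 1 to -0.90 on 12 h replicate 2, a difference of -1.32, and Ldha A_65_P03777 went from 0.50 to 0.03. The 72 h comparison rested on 2 fed and 3 fasted arrays of day 2. Within that day 7 of 8 listed probes lay above fed (41.8% of all probes), with a median of 0.39, and 0 members passed (0.0208%). At an unadjusted p under 0.05 there were 4, beside 12.5% of all probes. Gpi1 A_65_P14812 was higher by 0.60 there (95% interval 0.06 to 1.14), and Ldha A_65_P03777 by 0.06. Within day 3, which held 2 arrays each at 12 h and 24 h, 0 members passed for 24 h against 12 h (0% of all probes), and 1 had an unadjusted p under 0.05 (3.02%). That was Aldoa, 0.38 higher at 24 h than at 12 h on that day (95% interval 0.11 to 0.66, limma adjusted p = 0.939).

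**Figure D3:**
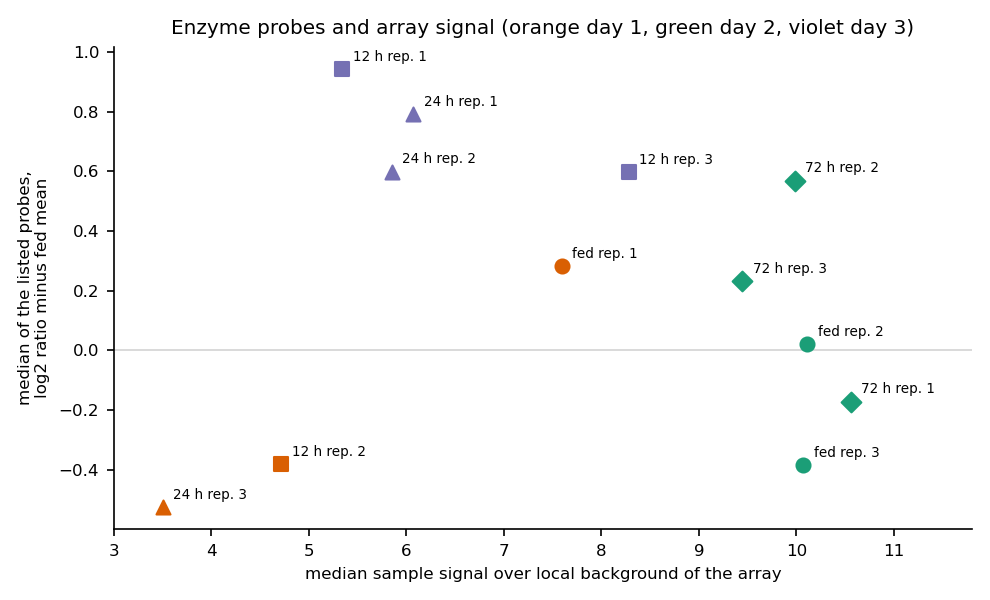
Median of the listed probes on an array minus their fed mean, as a log2 ratio (vertical axis), against the median sample signal of the array over its local background (horizontal axis), with 1 point per array and the colour giving the quantification day. The 2 arrays with the lowest signal, at 3.50 and 4.72, have 2 of the 3 lowest medians, -0.53 and -0.38, and fed replicate 3 has -0.39.

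The neighbours of these enzymes were counted from gene lists of the pathway, and none of their probes passed with all 12 arrays. The other reversible steps and isoforms had a probe for 3 of 12 genes (Pgk1, Eno3 and Bpgm), with a median difference of -0.36, -0.10 and -0.04 at 12, 24 and 72 h. Phosphoglycerate kinase (Pgk1), the step between Gapdh and Pgam1, was at 0.04, 0.07 and 0.19. Its arrays read 0.18, 0.01 and -0.12 when fed, 0.32, -0.49 and 0.37 at 12 h, 0.34, 0.40 and -0.45 at 24 h, and 0.05, 0.33 and 0.27 at 72 h. Pgk1 therefore had the same low values on the low-signal arrays, over a narrower range. Bisphosphoglycerate mutase (Bpgm), which makes the red cell effector 2,3-bisphosphoglycerate, was lowest of the list at -0.53, -0.65 and -0.13, and without the low-signal arrays it fell by 1.03 at 24 h. The 2 erythroid marker genes had mean log2 ratios of -0.75 and -0.98 on the 24 h arrays that remain in that fit and -0.68 to -0.04 on the fed arrays, and their part in this was not tested. The glycolysis-only steps had 4 of 9 genes (5 probes of Hk1, Hk2, Pfkl and Pfkm) with medians of -0.20, 0.02 and -0.05. Within this list Pfkm at -0.03 was highest at 12 h, a Pfkl probe at 0.26 and 0.16 at 24 and 72 h, and hexokinase Hk2 was lowest at -0.47, -0.22 and -0.26. None of the 5 passed without the low-signal arrays at any of the 3 times.

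The gluconeogenesis-only list had 4 of 8 genes (Pck1, Pck2, Fbp2 and Slc37a4) and medians of 0.29, 0.49 and 0.44. No probe was found by name for glucose-6-phosphatase, liver fructose-bisphosphatase, liver pyruvate kinase or glucokinase. Pck1, the cytosolic phosphoenolpyruvate carboxykinase, read 0.31 and 0.30 on fed replicates 1 and 2, 1.17 and 1.46 on 12 h replicates 1 and 3, 1.48, 1.35 and 0.54 at 24 h, and 1.02, 1.32 and 1.21 at 72 h, with a spot missing on fed replicate 3 and on 12 h replicate 2. Every measured fasted array lay above both measured fed arrays. Of probes measured on all arrays, 6.45% at 12 h and 6.66% at 24 h lay wholly above the fed group. No share was computed for 2 fed arrays, where separation is easier. The Pck1 differences were 1.01, 0.82 and 0.88, with limma unadjusted p of 0.00948, 0.0172 and 0.0123, and none passed after adjustment over all probes. Pck1 was higher by 1.01, 1.11 and 0.88 in the fit without the low-signal arrays. Of all probes, 1.7%, 5.21% and 0.686% passed upward in that fit, whose 12 h and 24 h arrays are all of day 3. Slc37a4, the glucose 6-phosphate transporter of the endoplasmic reticulum, was at 0.46, 0.90 and 2.09, and without the low-signal arrays it rose by 1.32 at 24 h and 2.09 at 72 h. Its 72 h arrays read 1.95 and 2.63 beside fed arrays at 0.34 and 0.05, with 1 spot missing in each group. Fbp2, the muscle type of fructose-bisphosphatase, was lowest of the list at 0.05, -0.35 and -0.23.

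**Figure D4:**
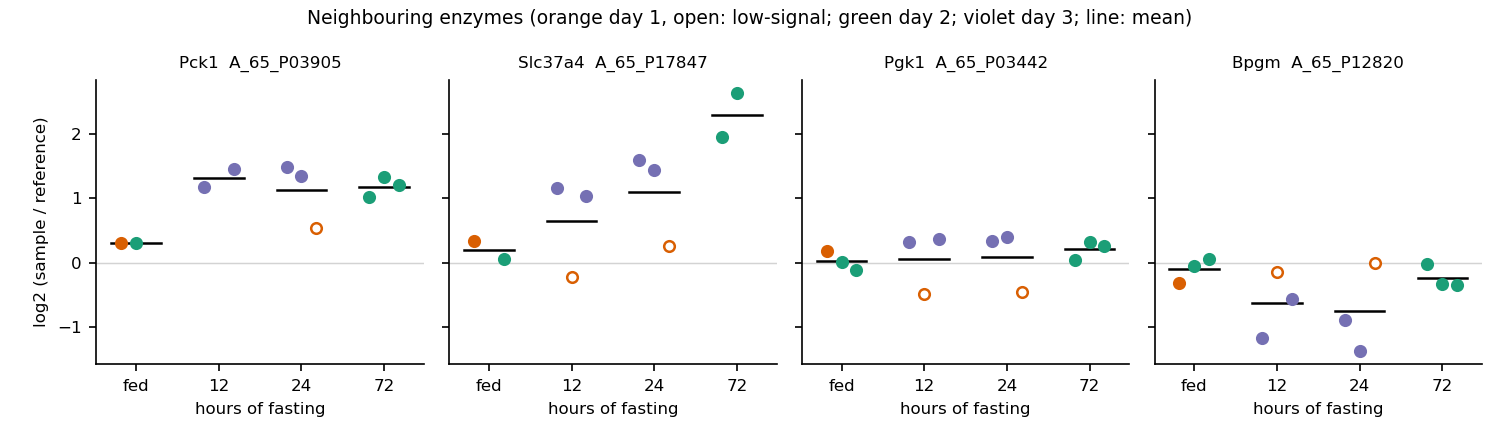
Log2 ratio of sample over reference (vertical axis) by hours of fasting (horizontal axis) for Pck1, Slc37a4, Pgk1 and Bpgm, with 1 point per array, colours and open points as in the plot of the enzymes by array, and lines for group means. The Pck1 points of fasted arrays, 0.54 to 1.48, all lie above the fed ones at 0.30 and 0.31. A Pck1 spot is missing on fed replicate 3 and on 12 h replicate 2, and no share of all probes was computed for this case.

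Regulators and the pyruvate branch had 11 of 19 genes (12 probes), with medians of -0.07, 0.10 and 0.17. The highest was Pdk3, a pyruvate dehydrogenase kinase, at 0.33 at 12 h, and the forkhead factor Foxo1 at 0.67 and 0.91 at 24 and 72 h. The lowest at each time was Pdhb, a pyruvate dehydrogenase subunit, at -0.94, -0.61 and -0.16. With the low-signal arrays left out, 4 of the 12 rose at 24 h (Foxo1 by 0.77, the hypoxia factor Hif1a by 0.64, the mitochondrial pyruvate carrier Mpc1 by 1.01 and Pdha1 by 0.89) and 2 at 72 h (Foxo1 by 0.91 and Pdha1 by 0.83). Of all probes, 5.21% passed upward at 24 h and 0.686% at 72 h in that fit. All its 12 h and 24 h arrays are of day 3, which holds no fed array, so day and fasting cannot be told apart there. The glycogen and sugar-phosphate list had 10 of 15 genes (13 probes), with medians of -0.34, -0.18 and -0.02. Its highest probe was phosphoglucomutase Pgm1 at 0.95, 0.62 and 0.56, which rose by 1.09 at 24 h without the low-signal arrays. Its lowest were the branching enzyme Gbe1 at -1.56 at 12 h, Ugp2 at -0.50 at 24 h and Aldh1b1 at -0.46 at 72 h. Glucose and monocarboxylate transporters had 5 of 7 genes (6 probes), with medians of -0.05, -0.07 and 0.06. The widely expressed glucose transporter Slc2a1 was highest at 0.71, 0.60 and 0.80 and rose by 1.10 at 24 h without the low-signal arrays, and the hepatocyte transporter Slc2a2 was lowest at -0.90, -0.47 and -0.31.

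The probes whose course over the arrays was most like the mean of the listed probes were sought among 4269 named probes, over the 10 arrays without low signal. The median correlation of these candidates with that mean was 0.314. The 5 most alike were Sec61a1 (0.982), a subunit of the translocon of the endoplasmic reticulum, Dlst (0.978), a subunit of 2-oxoglutarate dehydrogenase, Emc3 (0.978), a membrane protein insertase subunit, the receptor Gpr180 (0.977) and the ubiquitin ligase Pja1 (0.972). Over all 12 arrays Dlst and Sec61a1 were ranks 1 and 2, at 0.985 and 0.982, while Pja1, Emc3 and Gpr180 were ranks 241, 516 and 602. These arrays share a reference pool and fall into 3 quantification days, so the likeness includes whatever differed between arrays of those days.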

How the data were processed

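RNA of pooled mouse livers was hybridised to 12 two-colour Agilent arrays, and per the labels Feature Extraction 6.1.1 read the scans. Per the file headers the deposited columns used here hold spot intensity in each channel, its local background and outlier marks. The deposited value table holds log10 ratios; its 243360 values equal the scanner's log ratio with the sign turned (largest difference 4.92e-08), so it served as an alternative only. The authors subtracted background from median signals, quantile-normalized, and dropped outlying spots with an ANOVA over reference signals. They called genes by a Split-Factor ANOVA at p under 0.01 and 1.4-fold. The call had to be the same on most arrays of a group, both against the reference channel and across arrays against fed samples.

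From the median intensities, background was corrected by normexp (offset 50), the 24 channels were quantile-normalized together, a spot with an outlier mark on either dye was treated as missing, and log2 of sample over reference was fitted with limma 3.58.1 in R 4.3.3 over 4 groups (lmFit, eBayes). P-values were adjusted by Benjamini-Hochberg over all probes tested. A call needed an adjusted p under 0.05 and at least 1.4-fold. limma stands in for the Split-Factor ANOVA. Of 21446 spots, 1075 controls and 91 retired spots were left out. Gene names (8564 probes) came from the files, updated through RefSeq symbols, synonyms and accessions, or from gene IDs in the study's list (107 probes). Aldoa, Tpi1 and Gapdh carry the older names Aldo1, Tpi and Gapd in the files. The members and lists were chosen with earlier results of these data known. Named neighbours are the highest and lowest probe of each list at each time, Pck1, and the 5 probes most like the members. Hif1a, Mpc1, Pdha1 and the marker genes were named after their values were seen. The script was tested on simulated data with known changes. The number of arrays limits the precision. No 2 arrays held the same library (highest correlation of sample signals 0.98768). Alternatives were loess, the scanner's log ratio, plain subtraction, the sample channel alone, no filter on dim probes, outlier spots kept, array weights, quantification day or replicate number as a block (only for probes whose measured spots allow the comparison), and leaving out arrays. Within-day fits and the listed probes without the one named for the C chain were added after seeing the data.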

Additional observations from a re-analysis of the deposited data

How the results depend on the processing

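With 3 arrays a group and 3 quantification days unevenly spread over the groups, depth of signal and day limit every value here, and the causes of the changes below were not tested. The number of members passed, 0 in all 6 comparisons, became 7 (12 h), 5 (24 h), 1 (72 h against 24 h, Aldoa) and 1 (72 h against 12 h, Ldha A_65_P03777) with array weights. It became 1 (12 h) and 3 (24 h) without the low-signal arrays, and 2 (12 h), 1 (72 h against 24 h) and 2 (72 h against 12 h) with day as a block. Leaving out any 1 array kept it at 0 (range 0 to 0). The median of the listed probes ranged over these from 0.10 (without 12 h replicate 1) to 0.81 (without 12 h replicate 2) at 12 h, where it was 0.23 without 12 h replicate 3 and 0.21 without fed replicate 3. At 24 h it ranged from 0.13 (without 24 h replicate 2) to 0.68 (without 24 h replicate 3), with 0.19 without 24 h replicate 1. At 72 h it ranged from 0.05 (without 72 h replicate 2) to 0.42 (without 72 h replicate 1). It was 0.29, 0.58 and -0.04 in the sample channel alone, and -0.56 (12 h) and -0.75 (24 h) with day as a block, over the 7 listed probes that this fit can estimate.

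With day as a block, estimates that turned at 12 h were Gpi1 A_65_P14812 -0.19, A_65_P05350 -1.15 and A_65_P05815 0.022, Aldoa -1.23, Tpi1 -0.78, Gapdh -0.47, Pgam1 -0.56, Eno1 A_65_P08034 -1.09 and A_65_P08464 0.16, and Ldha A_65_P03777 -0.43. At 24 h they were Gpi1 A_65_P14812 -0.38 and A_65_P05350 -0.70, Aldoa -0.75, Tpi1 -0.70, Gapdh -0.63, Eno1 A_65_P08034 -0.95 and Ldha A_65_P03777 -0.86. Ldha A_65_P07485 could not be estimated there. At 72 h Ldha A_65_P03777 was 0.063 with the block and within day 2, 0.028 with loess and 0.023 from the scanner's log ratio. The sample channel alone gave Eno1 A_65_P08034 -0.068 at 12 h, Pgam1 0.48 and Eno1 A_65_P08464 -0.62 at 24 h, and Gpi1 A_65_P05815 0.40, Tpi1 -0.0022, Gapdh -0.19, Pgam1 -0.25, Eno1 A_65_P08034 -0.092 and Ldha A_65_P03777 0.13 at 72 h. Plain subtraction gave Gpi1 A_65_P05350 -0.039 at 12 h. At 24 h Pgam1 and Eno1 A_65_P08464 were 0.28 and -0.031 with array weights, and 0.19 and -0.062 without the low-signal arrays.

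Leaving out single arrays turned these at 12 h: Gpi1 A_65_P05350 (-0.35 to 0.59), Aldoa (-0.17 to 0.71), Tpi1 (-0.061 to 0.92), Pgam1 (-0.12 to 0.45) and Eno1 A_65_P08034 (-0.33 to 0.63). At 24 h it turned Pgam1 (-0.33 to 0.19), Eno1 A_65_P08034 (-0.050 to 0.59) and A_65_P08464 (-0.067 to 0.22), and Ldha A_65_P07485 (-0.086 to 0.52). At 72 h it turned Gapdh (-0.18 to 0.35), Eno1 A_65_P08034 (-0.16 to 0.41), and Ldha A_65_P03777 (-0.30 to 0.24) and A_65_P07485 (-0.57 to 0.047).

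Replicate numbers only number the pools: of 18 same-numbered pairs of arrays, 5 had a correlation of deviations above 0.1 (range -0.59 to 0.585), and 2 arrays correlated best with their own number. With the replicate block the number of members passed stayed 0 in all 6 comparisons, and the medians of the listed probes were 0.40, 0.40 and 0.28.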
